A study of Mus musculus with 16 samples.

Results

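The genes described here carry sugars into the intestinal epithelial cell and handle fructose, glucose and glycogen inside it. They are the 9 genes Slc5a1, Slc2a2, Slc2a5, Khk, G6pc, Fbp1, Slc37a4, Pck1 and Pygl, each chosen by its symbol, and each had its own row among the 48440 genes listed. They were measured by RNA-Seq of GFP+ cells sorted from Lgr5-EGFP mice, in which a green fluorescent protein is made from the Lgr5 gene, a gene of intestinal stem cells (ISCs) and early progenitors. The mice were fed a high-fat diet (60% fat) for 16 weeks and then had vertical sleeve gastrectomy (VSG), which removes most of the stomach, or sham surgery. Cells were collected 4 weeks after surgery and 15 minutes after an oral liquid meal that followed an overnight fast. A 6 cm piece each of duodenum, jejunum and ileum was dissociated, and cells positive for CD45, CD31, annexin V or a dead-cell dye were removed before the GFP sort.

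In all groups the mice carried the same reporter and were on the same diet, so that the groups differed in the surgery and in the segment. For duodenum and jejunum alike there were 4 VSG and 2 sham libraries, and these segments came from the same 6 mice. For the ileum there were 2 of each surgery, which makes 16 libraries from 7 mice. A replicate number stands for 1 mouse throughout, but the numbers of VSG and of sham mice are separate, so equal numbers link no mice across surgeries. Replicates 1 to 4 of VSG gave the duodenal and jejunal libraries and replicates 4 and 5 the ileal ones. Because the duodenal and jejunal libraries come from the same mice, a direction seen in both is not 2 independent observations.

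Dietary glucose and galactose enter the enterocyte, the absorptive cell of the villus, through the brush border transporter SGLT1 (Slc5a1), and fructose enters through GLUT5 (Slc2a5). GLUT2 (Slc2a2) lets glucose, galactose and fructose leave across the basolateral membrane. Fructose is trapped by ketohexokinase (Khk), and part of it can be turned into glucose by enzymes that the gut shares with liver and kidney. Among these are Fbp1 (fructose bisphosphatase) and glucose 6-phosphatase (G6pc) with its carrier Slc37a4. Pck1 (phosphoenolpyruvate carboxykinase), which the gut also shares with these organs, begins the synthesis of glucose from oxaloacetate. Pygl, the liver form of glycogen phosphorylase, releases glucose phosphate from glycogen. Most of these genes are known for high expression in villus enterocytes rather than in stem cells.

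The libraries had an implied depth of 10.9 to 63.6 M reads, and some of them stood apart in ways that touch these genes. Lgr5 was listed at 0 in the sham replicate 1 libraries of the jejunum and the ileum and was detected in the other 14. The jejunal library of sham replicate 1 also had the highest summed level of 15 enterocyte markers of the 6 jejunal libraries (2171930 normalized counts, against 526315 to 990379 in the others) and a summed level of 9 stem cell markers of 16768 against 49148 to 67111. The jejunal library of VSG replicate 1 held 196951 normalized counts of Fabp6, an ileal bile acid binding protein, against 15.8 to 313 elsewhere in the jejunum and 29162 to 208801 in ileal libraries. In the ileum, 6.24% to 19.1% of the genes with a mean above 50 were listed at 0 in a given library, so a single 0 there can be a transcript that was missed. A normalized count is an estimated read count scaled with DESeq2, and the authors did this within each segment. The values are not whole reads over 1 factor per library, so the implied depths are approximate.

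The GFP+ cells of every segment contained mRNA of all 9 genes, and the transporter Slc5a1 and the fructose kinase Khk were the most abundant. Per M normalized counts of a library and per kb of exon, a scale on which genes can be compared, the median level of Slc5a1 was 365, 334 and 404 in duodenum, jejunum and ileum. Khk followed with 178, 162 and 129. Glycogen phosphorylase Pygl was lowest in each segment, with 3.51, 4.11 and 1.74. Pck1 came after Khk in the jejunum (90.1) and the ileum (46.4) and lower down in the duodenum (31.2).

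In the duodenum the genes between the ends of this order lay close together. Fbp1 (46.0), Slc2a2 (42.2), Pck1 (31.2), Slc37a4 (27.7), Slc2a5 (21.3) and G6pc (15.7) had ranges over the 6 libraries that overlapped from each gene to the next, and so did Slc5a1 and Khk. Khk and Fbp1 were the neighbours whose ranges did not meet in the duodenum, at 109 to 255 for Khk and 19.6 to 64.9 for Fbp1. The highest Pygl level, 11.96, was above the lowest G6pc level, 7.29. The plot of level along the intestine shows these medians and ranges.

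**Figure D1:**
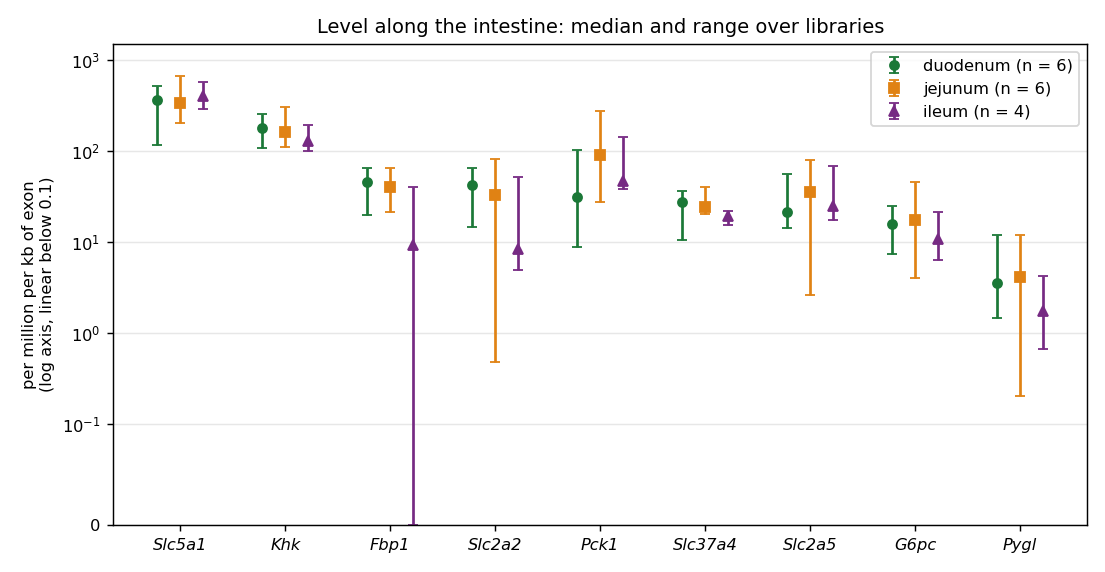
Median level of each gene, per M normalized counts and per kb of exon (log axis, linear below 0.1), with bars from the lowest to the highest library of the duodenum (n = 6), jejunum (n = 6) and ileum (n = 4). Slc5a1 and Khk lie above the other genes by their medians and Pygl lies lowest in each segment. For every gene the ranges of the 3 segments overlap.

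Along the intestine, the median per M counts was lowest in the ileum for 6 of the 9 genes, Slc2a2, Khk, G6pc, Fbp1, Slc37a4 and Pygl. The ileal median of the basolateral transporter Slc2a2 was 0.198 times the duodenal one, that of Fbp1 was 0.203 times and that of Pygl 0.494 times. The apical transporters did not follow this order, since the ileal median was 1.11 times the duodenal one for Slc5a1 and 1.18 times for Slc2a5. Pck1 was highest in the jejunum, with a median 2.89 times the duodenal one. For all 9 genes the ranges of the libraries overlapped between each pair of segments. The 3 tables were normalized separately and the ileal libraries come partly from other mice, so these ratios are a description and were not tested.

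Sequence before the RefSeq start of transcription is shown for the genes with a match to a searched motif and for Pygl, which after VSG lay on the opposite side of sham from most of the others. All 9 genes had a RefSeq promoter (GRCm38.p6, 250 bases before to 50 after the start). The letters searched on both strands were CACGTG (the E-box, read by factors such as ChREBP and USF), CAAAGTCCA (HNF4), AGATAAG (read by factors of the GATA family), TGACGTCA (the cyclic AMP element, CRE) and a consensus of HNF1 that the capitals in G6pc show. The E-box letters were found in Slc5a1, from position -143, and in Khk, from position -71, and the HNF1 letters in G6pc, from position -221 relative to the start. Of 32851 mouse promoters of this length, 7.15% held the E-box letters and 0.399% the HNF1 letters. No HNF4, GATA or CRE match was found in the 9 genes, against 0.475%, 3.04% and 1.79% of all promoters. Capitals mark the matched letters, and each sequence is written 5′ to 3′ on the strand of the gene. The first 3 genes lie on the plus strand (Slc5a1 chr5:33103969-33104218, Khk chr5:30921476-30921505, G6pc chr11:101367466-101367560) and Pygl on the minus strand (chr12:70227684-70227933). The 250 bases up to the start are given for Slc5a1 and Pygl. GENCODE M21 starts Khk, G6pc and Pygl upstream of the RefSeq start. The E-box letters of Khk lie inside the GENCODE gene, in its first exon, and are shown within 30 bases, while the 95 bases of G6pc end just before the GENCODE start. The whole Pygl stretch lies within an intron of a longer GENCODE transcript.
Slc5a1: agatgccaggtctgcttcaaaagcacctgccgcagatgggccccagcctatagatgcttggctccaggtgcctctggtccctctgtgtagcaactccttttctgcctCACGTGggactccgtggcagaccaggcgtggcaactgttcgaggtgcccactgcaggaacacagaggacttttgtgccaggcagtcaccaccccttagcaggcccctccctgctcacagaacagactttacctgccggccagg
Khk: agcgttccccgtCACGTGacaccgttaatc
G6pc: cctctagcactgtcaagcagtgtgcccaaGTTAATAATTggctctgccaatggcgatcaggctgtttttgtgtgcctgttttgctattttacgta
Pygl: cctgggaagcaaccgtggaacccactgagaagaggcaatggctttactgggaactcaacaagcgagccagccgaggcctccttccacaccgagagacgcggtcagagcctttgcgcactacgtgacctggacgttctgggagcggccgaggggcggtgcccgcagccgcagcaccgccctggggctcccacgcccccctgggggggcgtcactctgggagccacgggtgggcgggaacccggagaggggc

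The question for VSG against sham was whether these genes differed in the GFP+ cells of each segment after surgery. In the duodenum and in the jejunum, 8 of the 9 genes had a lower mean log2 level after VSG and Pygl a higher one, and in the ileum 4 were lower, counting Fbp1 with its library listed at 0, and 5 higher. The median log2 fold change of the 9 genes was -0.76, -1.05 and 0.10 in duodenum, jejunum and ileum, beside medians of 0.01, 0.11 and 0.24 over all genes tested. A log2 fold change below 0 was seen in 49.3%, 45.0% and 43.0% of all genes tested. With each library scaled to the same total, G6pc reached 0.04 in the duodenum and changed side, and the direction of the other members did not change in the duodenum or jejunum, while a scaling to enterocyte markers, described further on, put 5 of the lower genes above 0 in the duodenum and 3 in the jejunum.

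None of the 9 genes passed the thresholds for a call in any segment (a limma p under 0.05 that is under 0.2 after adjustment, with a log2 fold change beyond 0.5 either way and a mean above 50). The background was 4 of 16867 genes called in the duodenum (0.0237%), 2 of 15857 for the jejunum (0.0126%) and 0 of 13853 for the ileum. Limma without the trend of variance also called none of the 9. At an unadjusted p under 0.05, Slc2a5 and Pck1 were lower and Pygl higher in the duodenum, beside 3.48% of all genes lower and 2.79% higher. Khk, G6pc and Pck1 were lower and Pygl higher in the jejunum, beside 2.40% of all genes lower and 3.63% higher. No member had such a p in the ileum, beside 2.09% of all genes higher and 1.19% lower.

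**Figure D2:**
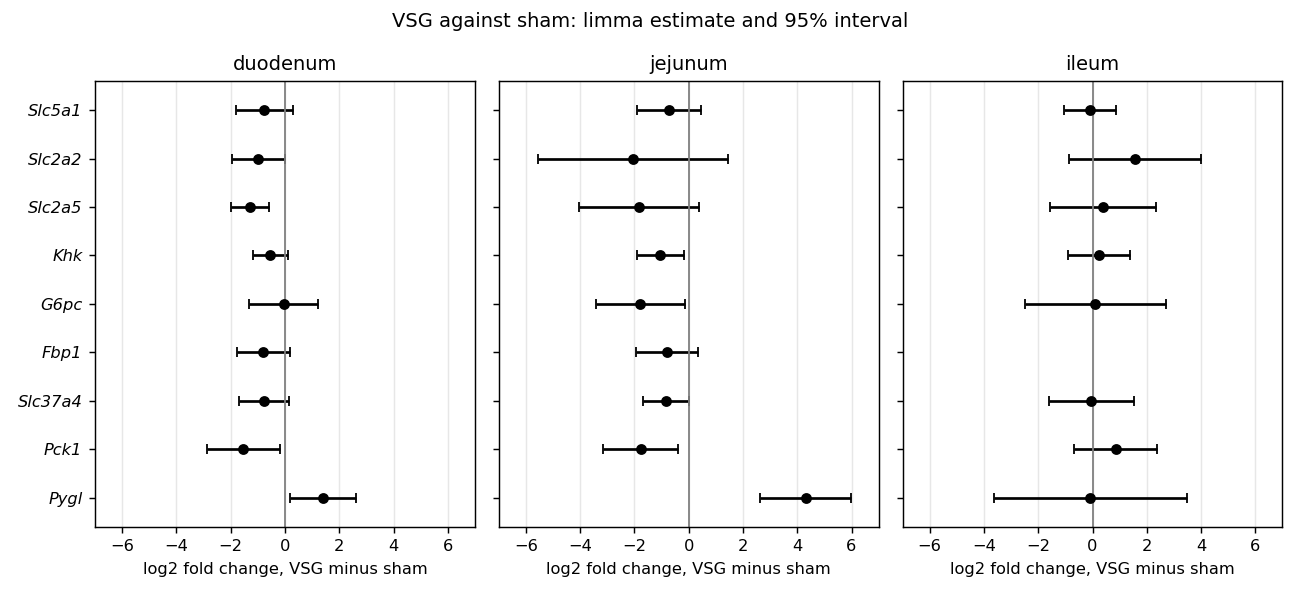
Log2 fold change of VSG against sham on the log2(normalized count + 1) scale for each gene in the duodenum (4 VSG, 2 sham), jejunum (4 VSG, 2 sham) and ileum (2 VSG, 2 sham). Points are limma estimates and bars 95% intervals. Pygl lies above 0 in the duodenum and jejunum and the other 8 lie at or below it, with G6pc changing side in the duodenum when libraries are scaled to the same total, and 5 duodenal and 3 jejunal genes when they are scaled to enterocyte markers. Ileal Fbp1, with 1 library listed at 0, is not plotted.

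In the duodenum, the apical fructose transporter Slc2a5 (chromosome 4, 150119283 to 150144169, plus strand) had 2277, 2874, 3253 and 3532 normalized counts in VSG replicates 1 to 4 and 9721 and 5341 in sham replicates 1 and 2. The 4 VSG libraries all lay below both sham libraries, as in 8.01% of all genes tested in the duodenum. The log2 fold change was -1.29 (SE 0.30), with a limma p of 0.00203 that did not pass adjustment (adjusted p = 0.434), and the exact permutation p was 0.0667, the smallest that 4 against 2 libraries allow. In the jejunum, Slc2a5 had 293, 4116, 2855 and 4846 after VSG and 12625 and 4137 after sham surgery. There the groups overlapped, VSG replicate 1 was far below the rest, and the log2 fold change of -1.84 (SE 0.99, limma adjusted p = 0.760) became -0.91 without that library. Ileal Slc2a5 had 1311 and 5169.8 in VSG replicates 4 and 5 and 2550.2 and 1552 in the sham libraries, which also overlapped (log2 fold change 0.39, SE 0.79, limma adjusted p = 0.888).

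The sodium-coupled glucose transporter Slc5a1 (chromosome 5, 33104219 to 33162870, plus strand) had 22738, 73449, 77429 and 54192 normalized counts in the duodenum of the VSG mice, against 109132 and 69107 in the sham libraries. VSG replicate 1 was the lowest and VSG replicates 2 and 3 lay between the sham libraries. The jejunal values were 27644, 64760.2, 43314 and 50086 after VSG and 127569 and 41632 after sham surgery, where the highest value was that of sham replicate 1 and the other sham library lay among the VSG ones. The log2 fold changes were -0.76 (SE 0.47) in the duodenum and -0.72 (SE 0.53) in the jejunum, with limma adjusted p of 0.880 and 0.763. Without the jejunal library of sham replicate 1, the jejunal value was 0.09. In the ileum, Slc5a1 had 26273 and 51715 after VSG and 38504 and 39884 after sham surgery (log2 fold change -0.09, SE 0.38, limma adjusted p = 0.974), with the VSG libraries on either side of the sham ones.

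The basolateral transporter Slc2a2 (chromosome 3, 28697903 to 28731359, plus strand) had 3949.6, 10305, 13442 and 7602 normalized counts in the duodenum of the VSG mice, against 19483 and 12857 in the sham libraries. Only VSG replicate 3 exceeded a sham library, and the log2 fold change was -0.98 (SE 0.44, limma adjusted p = 0.798, exact permutation p = 0.267). In the jejunum Slc2a2 had 92.2, 7899, 6343 and 6634 after VSG and 22113 and 4370.0 after sham surgery. The VSG replicate 1 library, which also held the ileal gene Fabp6 at the ileal level, held 2.75 per M normalized counts of Slc2a2, below the 28.4 of the lowest ileal library (tables normalized separately), and the other VSG libraries lay between the sham ones. The jejunal log2 fold change of -2.06 (SE 1.57, limma adjusted p = 0.774) was -0.51 without that library, and 0.66 without it and the library of sham replicate 1 (limma adjusted p = 0.647). In the ileum the values were 1058 and 6487 after VSG and 709 and 1085 after sham surgery, which gave a log2 fold change of 1.58 (SE 0.97, limma adjusted p = 0.736) with overlapping groups.

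**Figure D3:**
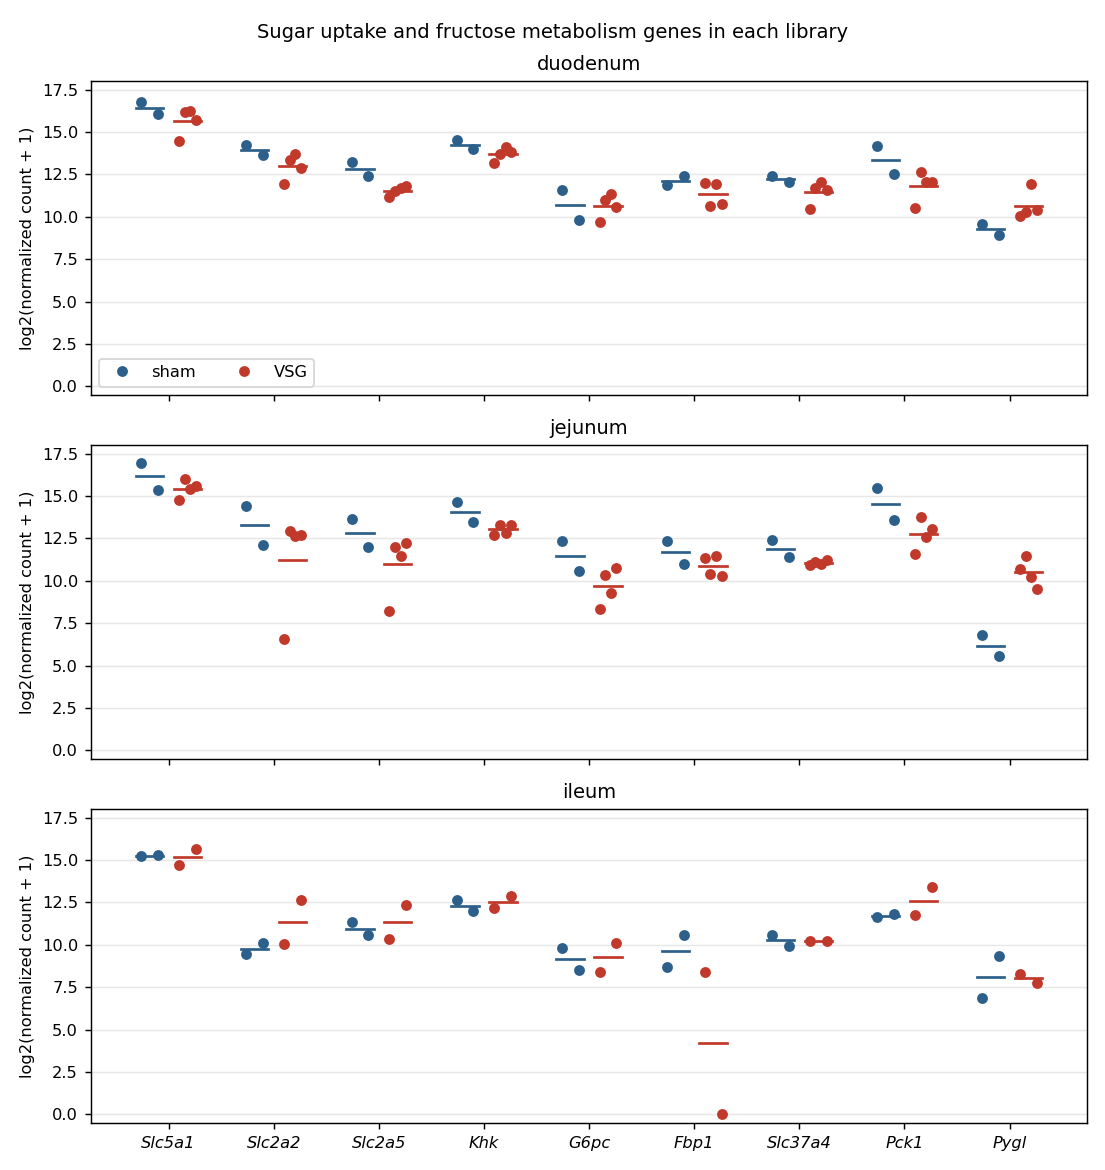
Log2(normalized count + 1) of each gene in each library, by segment, with sham in blue, VSG in red, and horizontal lines at the group means; within a group the points run from the lowest to the highest replicate number. In the jejunum Pygl lies at 742 to 2859 normalized counts after VSG against 46.6 and 109 after sham surgery, and the VSG replicate 1 library is low for Slc2a2 (92.2) and Slc2a5 (293).

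Ketohexokinase Khk (chromosome 5, 30921431 to 30931248, plus strand), the enzyme that phosphorylates fructose, had 9309.6, 13537, 17709 and 14353 normalized counts after VSG and 23752 and 15972 after sham surgery in the duodenum. The groups overlapped through VSG replicate 3 (log2 fold change -0.54, SE 0.29, limma adjusted p = 0.858). In the jejunum Khk had 6663, 9857, 7356 and 9995 after VSG and 26074 and 11350.4 after sham surgery. All 4 VSG libraries lay below both sham libraries, as in 6.21% of all genes tested in the jejunum, with a log2 fold change of -1.05 (SE 0.39, limma p = 0.0228, adjusted p = 0.760) and an exact permutation p of 0.0667. The jejunal value was -0.45 without sham replicate 1 and -1.65 without sham replicate 2. Ileal Khk was 4699 and 7567 after VSG and 6281 and 4050.1 after sham surgery (log2 fold change 0.24, SE 0.46, limma adjusted p = 0.873), and the groups overlapped.

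Phosphoenolpyruvate carboxykinase, Pck1 (chromosome 2, 173153048 to 173159273, plus strand), which starts glucose synthesis from oxaloacetate, had 1437, 6311, 4308 and 4249 normalized counts after VSG and 18370.4 and 5854 after sham surgery in the duodenum. VSG replicate 2 was above the lower sham library, and the log2 fold change was -1.53 (SE 0.60, limma adjusted p = 0.692, exact permutation p = 0.267). It was -0.71 without sham replicate 1 and -2.36 without sham replicate 2. The jejunal values were 3115, 13974, 6172 and 8387 after VSG and 44694 and 12471 after sham surgery, with sham replicate 1 far above the other libraries. The jejunal groups overlapped through VSG replicate 2, with a log2 fold change of -1.78 (SE 0.62, limma adjusted p = 0.760, exact permutation p = 0.2). Without sham replicate 1 this value was -0.86, and without sham replicate 2 it was -2.70. In the ileum Pck1 had 3513 and 10711 after VSG and 3234 and 3559.8 after sham surgery, which gave a log2 fold change of 0.85 (SE 0.62, limma adjusted p = 0.736).

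Fructose bisphosphatase Fbp1 (minus strand of chromosome 13, 62864753 to 62888282) had 4051, 1579, 3922 and 1749 normalized counts after VSG and 3765 and 5297 after sham surgery in the duodenum. In the jejunum it had 2559, 1372, 2849 and 1229 after VSG and 5250.2 and 2045 after sham surgery. In both segments VSG replicates 1 and 3 were the higher VSG libraries and reached into the sham range, with log2 fold changes of -0.79 (SE 0.43) and -0.81 (SE 0.51) and limma adjusted p of 0.859 and 0.760. The jejunal value was -0.13 without sham replicate 1 and -1.49 without sham replicate 2. Ileal Fbp1 was 341 in VSG replicate 4, listed at 0 in VSG replicate 5, and 405 and 1524 in the sham libraries. Both ileal VSG libraries were below the sham libraries, as in 11.6% of all genes tested in the ileum (17.0% had both above), and since 16.6% of the genes with a mean above 50 were listed at 0 in the library of VSG replicate 5, no fold is given.

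The glucose 6-phosphatase system has a catalytic subunit and a carrier that brings its substrate into the endoplasmic reticulum. The catalytic subunit G6pc (chromosome 11, 101367561 to 101377903, plus strand) had 835, 2034, 2588 and 1544 normalized counts after VSG and 3075 and 899.6 after sham surgery in the duodenum, where 3 VSG libraries lay between the sham ones. In the jejunum G6pc had 321, 1318, 612 and 1697 after VSG and 5189 and 1514 after sham surgery, with VSG replicate 4 above a sham library. The log2 fold changes were -0.04 (SE 0.57, limma adjusted p = 0.992) and -1.78 (SE 0.74, limma adjusted p = 0.760). Leaving out sham replicate 1 gave 0.84 and -0.89, and leaving out sham replicate 2 gave -0.93 and -2.67. The ileal values overlapped, at 335 and 1123 after VSG and 906 and 360.3 after sham surgery.

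Its carrier Slc37a4 (chromosome 9, 44396852 to 44402968, plus strand) had 1412, 3345, 4304 and 3041 normalized counts after VSG and 5368 and 4207 after sham surgery in the duodenum. VSG replicate 3 was just above the lower sham library (log2 fold change -0.76, SE 0.41, limma adjusted p = 0.859). The jejunal values were 1958, 2233.5, 1999 and 2440.0 after VSG and 5365 and 2729 after sham surgery. Every VSG library was thus below both sham libraries, as in 6.21% of all genes tested in the jejunum. The VSG libraries lay within 1958 to 2440.0, and the log2 fold change was -0.83 (SE 0.38, limma adjusted p = 0.760, exact permutation p = 0.0667). Ileal Slc37a4 hardly varied after VSG, at 1199 and 1195, between the sham values of 1552 and 979.

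Glycogen phosphorylase Pygl (chromosome 12, 70190811 to 70231488, minus strand) was the member with the largest log2 fold change in the jejunum. It had 1679, 2859, 1191 and 742 normalized counts in the jejunum of the VSG mice, against 109 and 46.6 in the sham mice. All 4 VSG libraries were above both sham libraries, as in 6.59% of all genes tested in the jejunum, and the lowest VSG library was 6.79 times the higher sham library. The log2 fold change was 4.31 (SE 0.75, 95% interval 2.64 to 5.98), the limma p was 0.000183, and adjustment over all genes gave 0.404. The exact permutation p was 0.0667.

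Duodenal Pygl showed the same order of groups with a smaller gap. It had 1041, 1252, 3865 and 1325 normalized counts after VSG and 769 and 486 after sham surgery, so that each VSG library was above both sham libraries, as in 6.44% of all genes tested in the duodenum. The log2 fold change was 1.39 (SE 0.54, limma p = 0.0292, adjusted p = 0.690, exact permutation p = 0.133), with VSG replicate 3 well above the other VSG libraries. In the ileum Pygl had 308 and 219 after VSG and 114 and 656 after sham surgery, and the VSG libraries lay between the sham ones (log2 fold change -0.08, SE 1.43, limma adjusted p = 0.998). The direction in the duodenum and jejunum was higher after VSG under every alternative tried, from 0.90 to 2.33 and from 3.70 to 5.34.

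The jejunal and duodenal changes were set against each other within the 6 mice that gave both libraries. For Pygl the jejunal change exceeded the duodenal one by 2.91 on the log2 scale (SE 0.94, limma adjusted p = 0.948), and for G6pc it was lower by a difference of -1.74 (SE 0.67, limma adjusted p = 0.948). The other 7 genes had differences from -1.08 (Slc2a2) to 0.04 (Slc5a1) and limma adjusted p of at least 0.948. No member was called by this test with or without the trend, beside 0 of 14718 genes called (0%) and 4.10% with an unadjusted p under 0.05.

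Much of the variation in the duodenum and jejunum followed single mice. In the duodenum sham replicate 1 had the highest value of 7 of the 9 genes and VSG replicate 1 the lowest of 7. In the jejunum the same mice were again highest for 8 genes and lowest for 7. Ileal sham replicate 1 was highest for 1 gene and lowest for 3. The jejunal library of sham replicate 1 totalled 47.1 M normalized counts, against 33.5 to 34.5 M in the other jejunal libraries. For the summed enterocyte markers, sham replicate 1 had the highest sum in the duodenum and the jejunum (1098550 and 2171930) and VSG replicate 1 the lowest duodenal sum (346964). The lowest jejunal sum was that of VSG replicate 3 (526315), below the 593890 of VSG replicate 1. Over the 12 duodenal and jejunal libraries, each centred on its segment, the log2 level of Khk had a Pearson r of 0.938 with this sum, Pck1 0.917, Slc37a4 0.887, Slc5a1 0.872, G6pc 0.752, Slc2a5 0.690, Slc2a2 0.575 and Fbp1 0.462. Pygl had an r of -0.433. These libraries share mice and normalization, so the r values describe the set and carry no p.

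The enterocyte markers themselves were lower after VSG in 15 of 15 genes in the duodenum and 14 of 15 in the jejunum, with median log2 fold changes of -1.30 and -1.36. Their sum ranged from 346964 to 633912 in the duodenal VSG libraries and from 751399 to 1098550 in the sham libraries, which did not overlap. The jejunal ranges, 526315 to 990379 and 865730 to 2171930, did overlap, and the ileal ranges, 404150 to 682438 and 686377 to 838715, narrowly did not. Single genes with every VSG library below the sham ones made up 8.01% of those tested in the duodenum and 11.6% in the ileum. Of the 15 markers, 8 were lower and 7 higher in the ileum, with a median log2 fold change of -0.11. In a bulk library of sorted cells, fewer cells of a type and less RNA per cell cannot be told apart, and the part of the enterocyte content in the lower sugar genes was not tested.

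**Figure D4:**
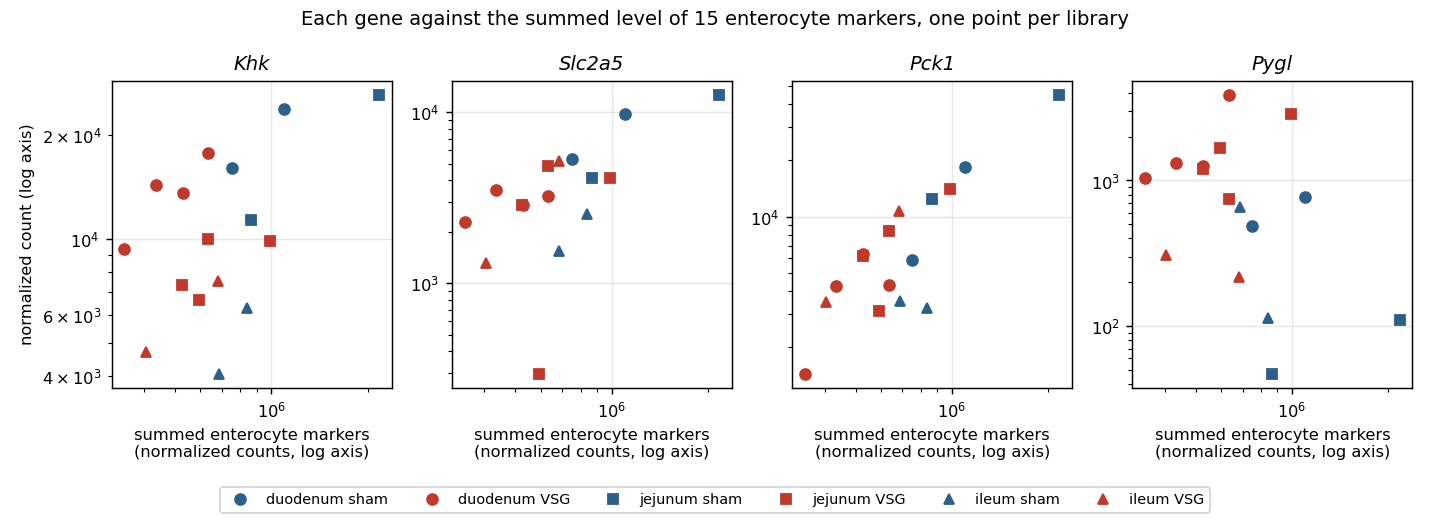
Normalized count of Khk, Slc2a5, Pck1 and Pygl (log axis) against the summed normalized counts of 15 enterocyte markers (log axis), with a point for each of the 16 libraries, coloured by surgery and shaped by segment. Khk and Pck1 follow the sum (r = 0.938 and 0.917 over the 12 duodenal and jejunal libraries) and Pygl does not (r = -0.433).

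Per 1000 normalized counts of enterocyte markers, Pygl was 3.00, 2.37, 6.10 and 3.05 in the duodenum after VSG, against 0.700 and 0.647 in the sham libraries. In the jejunum it was 2.83, 2.89, 2.26 and 1.17 after VSG and 0.0503 and 0.0539 after sham surgery, and the groups were apart in both segments. In the duodenum this was fixed beforehand, since Pygl was already higher and every VSG enterocyte sum lay below the sham sums. In the jejunum the lowest VSG library was already 6.79 times the higher sham library. The jejunal sums, which overlapped only between 865730 and 990379, could not undo that gap. The scale therefore adds nothing to the order on the deposited values. Khk on the same scale turned to the other side in the duodenum, with 25.6 to 33.0 after VSG above 21.3 and 21.6 after sham surgery, and overlapped in the jejunum, where both sham values lay within the 9.95 to 15.8 of the VSG libraries. Slc2a5 overlapped in both segments, at 5.13 to 8.13 against 7.11 and 8.85 in the duodenum. Pck1 was below both sham libraries in the jejunum, at 5.24 to 14.1 against 14.4 and 20.6. In the duodenum, where every VSG sum was lower, this division moves all genes toward the VSG side, their median by 0.94. No share of all genes with groups apart was computed on this scale in duodenum or jejunum. The orders of Khk and Pck1 on it are therefore not read.

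With each library scaled to the same enterocyte sum, a choice made after the values were seen, limma called Pygl in the duodenum (log2 fold change 2.33, adjusted p = 0.0788) and in the jejunum (5.34, adjusted p = 0.0880). Under this scaling 25.2% of all genes tested in the duodenum were called higher after VSG (4276 of 16974), so the duodenal call does not set Pygl apart. In the jejunum 6 of 16040 genes were called, all higher (0.0374%). The scaling shifts estimates upward, the direction Pygl already had, so neither call is separate support. On the deposited values Pygl was called in neither segment (limma adjusted p = 0.690 and 0.404). Over its other alternatives the adjusted p of Pygl went up to 0.895 in the duodenum and 0.844 in the jejunum. This scaling moved the median of all genes up by 0.94 in the duodenum and 1.03 in the jejunum. Under it Slc5a1, Khk, G6pc, Fbp1 and Slc37a4 came above 0 in the duodenum and Slc5a1, Fbp1 and Slc37a4 in the jejunum. Relative to the median of all genes, which a single factor per library moves along with the members, 8 of the 9 genes lay lower in both segments on the deposited values, and also after quantile normalization. The total scaling moved the median of all genes in the jejunum by 0.22. In the ileum the count of members below the median was 6 of 9, or 4 of 9 after quantile normalization.

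Markers of other cell types also differed between the groups that Pygl separates. The summed level of 5 tuft cell markers was 13078 to 27055 in the duodenal VSG libraries and 4009.5 to 10011 in the sham libraries, and 4640.1 to 18085 against 1201 to 10138 in the jejunum. All 5 tuft markers had a log2 fold change above 0 in both segments, 4 of them with an unadjusted limma p under 0.05 in the duodenum and 2 in the jejunum. All 6 goblet markers were above 0 too, with 1 and 3 at that p. The goblet sums overlapped in both segments, at 105540.0 to 283498 against 93264 to 163305 in the duodenum and 187885 to 354904 against 103843 to 217471 in the jejunum. Over the 12 duodenal and jejunal libraries, the r of Pygl was 0.623 with the goblet sum and 0.584 with the tuft sum, and 0.236 with the stem cell sum. In the jejunum 9 of 9 stem cell markers (none at that p) and 5 of 5 Paneth cell markers (1 at that p) were above 0 as well, and 7 of 9 and 4 of 5 in the duodenum. Their jejunal sums overlapped, at 49148 to 67111 against 16768 to 63007 (stem cell) and 80963 to 224872 against 32520 to 197611 (Paneth). Jejunal Lgr5 had a mean of 804 after VSG and 1027 after sham surgery. Its log2 fold change of 3.92 rests on the 0 in sham replicate 1, as the other sham library held 2053. Of 5 immune markers, Cd79a was at 0 in all libraries of both segments and Cd3e in the duodenal ones. The 3 that were tested had estimates above 0 in both segments. In the duodenum 2 of them had an unadjusted limma p under 0.05, Ptprc with a log2 fold change of 3.31 (SE 1.33, limma adjusted p = 0.732) and every VSG library above the sham ones, and Cd74 with 2.33 (SE 0.90, limma adjusted p = 0.684). The immune sums overlapped, at 20079 to 57307 against 1851 to 30164 in the duodenum and 21390.4 to 60338 against 11634 to 44876 in the jejunum (r with Pygl 0.469). Cd74 made up most of these sums. Its duodenal means were 39374.5 after VSG and 15950.4 after sham surgery, beside 503 and 25.1 for Ptprc and 67.5 and 32.1 for Lyz2. The jejunal means of Cd74 were 39489 and 27946. The sums and their r therefore mainly describe Cd74. The part of these cell types in the Pygl difference was not tested.

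The genes whose levels were most like each member over the same 12 libraries were found among 12337 genes with a mean above 50 in both segments. For Slc5a1 they were Exoc3l4 (r = 0.989), the sucrase-isomaltase gene Sis (0.980) and the sterol exporter Abcg5 (0.977). For Slc2a2 they were Adh6a (0.990), the retinol binding protein Rbp2 (0.989) and Ckb (0.987), and for Slc2a5 the amino acid transporter Slc36a1 (0.974), Adh4 (0.973) and Slc7a8 (0.967). Slc2a2 and Slc2a5 had an r of 0.954 with each other, and both had the low value of jejunal VSG replicate 1. Khk was most like Cyb5a (0.976), Pcsk5 (0.971) and Me2 (0.971), and Slc37a4 most like Cyp4f14 (0.976), Tm6sf2 (0.973) and Nat8f5 (0.966).

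Pck1 was most like the sterol exporter Abcg8 (0.975) and the peptide transporter Slc15a1 (0.972). For G6pc the nearest were Snx20 (0.951), Larp1b (0.949) and Soat2 (0.937). Fbp1 had lower values, with Preb (0.916), Atp5k (0.873) and Cpm (0.857), and its r with the other 8 members ran from -0.345 for Pygl to 0.388 for Khk. Pygl had negative r with each of the other 8 members, from -0.205 for Slc5a1 to -0.503 for Khk. Its nearest genes were Zbp1 (0.939), a sensor of Z-form nucleic acids, Gm15848 (0.915) and Zc3hav1l (0.904).

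The rest of the sugar pathway was followed with a list of 67 further genes. In the duodenum 63 were tested, of which 51 had a log2 fold change below 0 and 12 above, and 8 had an unadjusted limma p under 0.05, all of them lower after VSG. None was called. The median log2 fold change was -0.38 beside 0.01 over all genes. In the jejunum 64 were tested, 49 below and 15 above 0, with 9 lower and 2 higher at that p, none called, and a median of -0.44 beside 0.11. The 61 genes tested in the ileum divided into 29 below and 32 above 0, with 1 lower at that p and a median of 0.03 beside 0.24. Of all genes tested, 3.48%, 2.40% and 1.19% were lower at that p in duodenum, jejunum and ileum, and 2.79%, 3.63% and 2.09% higher. The directions of the list were taken on the deposited normalization, and the list was not retested under the other scalings.

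The genes of the sugar pathway with the smallest duodenal p were mostly transporters and brush border or sugar alcohol enzymes. Sord, sorbitol dehydrogenase, which makes fructose from sorbitol, had 3959 ± 140.5 normalized counts after VSG (SD, n = 4) and 10499 ± 2075 after sham surgery (SD, n = 2), for a log2 fold change of -1.39 (SE 0.22, limma adjusted p = 0.291). The glucose sensor genes Slc5a4b and Slc5a4a had log2 fold changes of -2.85 (SE 0.66, limma adjusted p = 0.434) and -2.05 (SE 0.49, limma adjusted p = 0.434). Slc5a11, an inositol transporter, had -3.28 (SE 1.13, limma adjusted p = 0.626) and Slc5a9, a transporter of mannose and related sugars, -0.997 (SE 0.35, limma adjusted p = 0.644). The disaccharidases trehalase (Treh, -1.32) and lactase (Lct, -1.91) and the glycerol phosphate dehydrogenase Gpd1 (-0.71) completed the 8. Of the 63 genes tested, 15 had every VSG library below both sham libraries, these 8 among them, and that order was seen in 8.01% of all genes tested in the duodenum.

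Within the list, the 7 further transporters summed to 5009.7 to 8095 normalized counts in the duodenum of the VSG mice, against 21166 to 21853 in the sham libraries, without overlap, and in the jejunum to 2827 to 12058 against 13562 to 29626, also without overlap. The sums of the 4 disaccharidases overlapped in both segments, although Treh in both and Lct in the duodenum had every VSG library below the sham ones. All 7 genes of fructose and galactose handling were below 0 in both segments, with medians of -0.45 and -0.76, and 2 in each had an unadjusted p under 0.05. Their sums did not overlap, at 108349 to 170610 (VSG) against 178269 to 205893 in the duodenum and 77143 to 119674 against 120924 to 282449 in the jejunum. The glycolysis genes had smaller medians, -0.18 and -0.38, and none of the 12 had such a p in either segment, but their duodenal sums did not overlap either (197716 to 286722 against 290262 to 299385). In the jejunum the sums of gluconeogenesis (28261 to 40054 against 49398 to 74894) and glycogen genes (12871 to 16417 against 18436 to 23691) were also lower without overlap. In all, the VSG sums lay below the sham ones for 3 of the 9 groups of the list in the duodenum and 4 in the jejunum, where those of the hexose phosphorylation genes lay above. In the ileum they lay below for 1, the glycogen genes. Single genes had this lower order in 8.01%, 6.21% and 11.6% of all genes tested in duodenum, jejunum and ileum. No share was computed for sums of other gene sets, so these counts are not read. Slc5a11 alone had a mean of 10180 in the duodenal sham libraries. The sweet taste receptor gene Tas1r2 was listed at 0 in all libraries, and Tas1r3 in all ileal ones.

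In the jejunum, Slc5a4b had the smallest p of the list (log2 fold change -2.63, SE 0.54, limma adjusted p = 0.651), and Sord (-1.50, SE 0.41) and Treh (-1.83, SE 0.58) were again lower, each with a limma adjusted p of 0.760. The hexokinases Hk1 and Hk2, which phosphorylate glucose, had estimates above 0. Hk2 had 2588 ± 834 after VSG (SD, n = 4) and 762.3 ± 80.2 after sham surgery (SD, n = 2), for a log2 fold change of 1.72 (SE 0.41, limma adjusted p = 0.760). Hk1 had 591 ± 542 and 61.2 ± 86.6, with a limma adjusted p of 0.760, and its summed group of 5 hexose phosphorylation genes was 2545 to 4375 after VSG and 795 to 1059 after sham surgery. Ppargc1a, a coactivator of gluconeogenic genes, had -1.85 (SE 0.55), Got1 -1.25 (SE 0.50) and the transcription factor Creb3l3 -1.37 (SE 0.52), each with a limma adjusted p of 0.760.

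The other glycogen genes had estimates mostly below 0. Of the 12 further glycogen genes, 11 were tested in each of the duodenum and the jejunum, where 3 and 1 had a log2 fold change above 0, the medians were -0.36 and -0.44, and none had an unadjusted p under 0.05. Gys2 was listed at 0 in all libraries. In the ileum 10 were tested with a median of -0.91, and Phka2, a phosphorylase kinase subunit, had 110 ± 38.5 after VSG and 1028 ± 285 after sham surgery (SD, n = 2 each), for a log2 fold change of -3.23 (SE 1.12, limma adjusted p = 0.736). Among the other ileal genes of the list with the smallest p, the hexose transporter Slc2a7 had 200.2 ± 64.2 after VSG and was listed at 0 in both sham libraries. Gata4, Mlxipl and Eno1 were higher and Galm, Pcx and Pfkp lower by their estimates, each with a limma adjusted p of 0.736.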

How the data were processed

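RNA-Seq of GFP+ ISCs was analysed in 16 libraries, each 1 segment of 1 mouse. The authors mapped reads to mm10 with STAR 2.5.3a, quantified transcripts with Salmon 0.6.0 and excluded libraries of low mapping, which were not analysed here. They deposited signal values, counts normalized with DESeq2 within each segment, which are not whole reads, so no count model was run. The authors also deposited their own comparisons of VSG with sham (fold changes and p-values), which were not used. The counting strand is not given in the sources used here. Of 48440 genes, 48058 were matched to GENCODE M21, which gave positions and exon lengths.

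Limma 3.58.1 (R 4.3.3, with a variance trend) was fitted in each segment to log2(normalized count + 1) over all genes with a mean above 10, with Benjamini-Hochberg adjustment over all genes tested. Fold changes are on that scale. They understate those of genes low in every library, and where a library is at or near 0 they can exceed or reverse the change in mean count. Calls used the study's thresholds. The jejunal minus duodenal value of each mouse was tested likewise, on genes with that mean in both segments. Exact permutation tests of the mean log2 difference were two-sided over all splits (15 for 4 against 2, 6 for 2 against 2, where the smallest p is 0.333). Each library is a separate sample, and with 2 sham mice the p-values rest on a small estimate of spread.

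The named genes are the 9 members, in each segment the 8 genes of a 67-gene sugar pathway list with the smallest p, and for each member the 3 genes with the highest Pearson r, of which 1 is not reported here. Members, marker lists and tests were chosen with earlier results of these data known. The fit was tested on simulated data with known changes. Implied reads are total normalized counts divided by the most frequent value above 0 in the library, taken as the value of 1 read. Alternatives were each library left out in turn, a block on the replicate number (replicate block), pseudocounts of 0.5 and 10, other filters on low values, 2 other scalings, no variance trend and an adjusted p of 0.05. Added after the values were seen were the scaling to enterocyte markers and leaving out both jejunal replicate 1 libraries. Tables used pandas 2.3.3, numpy 2.4.6 and scipy 1.17.1 in Python 3.11.15, and figures used matplotlib 3.10.9.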

Additional observations from a re-analysis of the deposited data

Results flagged for a closer look

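Among the 4 jejunal VSG libraries, replicate 1 lay far from the rest for Slc2a2, at 92.2 normalized counts against 6343 to 7899. Its gap to the nearest library was 0.951 of the range of the group on the log2 scale, above Dixon's 95% critical value for 4 samples. It was the only one of 18 groups of 4 checked (9 genes in the duodenum and jejunum) to pass, and chance passes about 1 in 20. The same library held 293 normalized counts of Slc2a5 against 2855 to 4846 in the other VSG libraries, and 196951 of Fabp6 against 15.8 to 313 in the other 5 jejunal libraries. The part of this ileal gene content in these values was not tested.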

How the results depend on the processing

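Depth and the 2 sham mice limit these results, and for each member that was not called the 95% intervals in the plot of fold changes give the sizes that remain possible. Called genes numbered 4 in the duodenum and went to 0 with a pseudocount of 0.5, with all genes above 0, with a mean above 50, with equal totals, with an adjusted p under 0.05 and with a replicate block, to 43 without the trend and to 10 with a pseudocount of 10. In the jejunum 2 became 61 without the trend, 1 with an adjusted p under 0.05 and 48 without both replicate 1 libraries. In the ileum 0 became 463 without the trend and 3 with a pseudocount of 10, and 0 for the jejunal minus duodenal change became 10 without the trend. None of these sets held a member. Scaling to enterocyte markers gave 4320 called genes in the duodenum and 6 in the jejunum. VSG and sham mice that share a number are different mice, and their deviations correlated at -0.067 to 0.0533, so the replicate block pairs nothing.

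Leaving out 1 library at a time gave 0 to 259 called genes in the duodenum (259 without sham replicate 1), 1 to 2710 in the jejunum (2710 without sham replicate 2), 0 to 631 in the ileum and 0 to 815 for the difference (815 without sham replicate 2). Where this leaves 1 sham library, it is assumed to vary like the VSG libraries. The members called stayed at 0 in the duodenum, the ileum and the difference and were 0 to 5 in the jejunum, where Slc5a1, Khk, Slc37a4, Pck1 and Pygl were called without sham replicate 2, as were 17.4% of all genes tested. Scaling to enterocyte markers called 1 member, Pygl, in each of the duodenum (25.2% of all genes called higher) and jejunum (0.0374%). Members whose groups did not overlap numbered 2 to 8 in the duodenum, 3 to 9 in the jejunum and 4 to 7 in the ileum when 1 library was left out. With fewer libraries the groups of all genes come apart more often too, in 19.5% to 39.5%, 17.6% to 51.9% and 58.6% to 62.0% of them, against 14.4%, 12.8% and 28.6% with every library, so these counts are not read. Such members numbered 5 in the jejunum without both replicate 1 libraries (46.6% of all genes), and in the ileum 2 with quantile normalization (35.3%), 2 with equal totals (28.9%) and 5 with enterocyte scaling (30.6%). Members with the lowest median in the ileum numbered 6 to 7.

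Some estimates changed sign. With enterocyte scaling the duodenal log2 fold changes were 0.18 for Slc5a1, 0.40 for Khk, 0.89 for G6pc, 0.14 for Fbp1 and 0.18 for Slc37a4, the jejunal ones 0.33 for Slc5a1, 0.24 for Fbp1 and 0.21 for Slc37a4, and the ileal ones 0.44 for Slc5a1, 0.49 for Slc37a4 and 0.45 for Pygl. With equal totals G6pc was 0.0371 in the duodenum, and in the ileum Slc5a1 was 0.0208, Slc37a4 0.0662 and Pygl 0.0315. Quantile normalization gave 0.21 for Slc5a1 and -0.10 for G6pc in the ileum. Without both replicate 1 libraries Slc5a1 was 0.32 and Slc2a2 0.66 in the jejunum. The difference between segments became 0.14 for Fbp1 and 0.0759 for Slc37a4 with equal totals. Leaving out 1 library, G6pc ranged from -0.93 to 0.84 in the duodenum and in the jejunum Slc5a1 ranged from -1.52 to 0.09 and Slc2a2 from -3.23 to -0.51. In the ileum the ranges were -0.58 to 0.40 for Slc5a1, -0.60 to 1.38 for Slc2a5, -0.10 to 0.59 for Khk, -0.77 to 0.97 for G6pc, -0.37 to 0.29 for Slc37a4 and -1.34 to 1.18 for Pygl. For the difference they were -0.44 to 0.52 for Slc5a1, -1.95 to 0.13 for Slc2a2, -0.92 to 0.26 for Slc2a5, -0.94 to 0.91 for Fbp1 and -0.38 to 0.24 for Slc37a4. With no change of sign, Slc2a5 ranged from -2.64 to -0.91 in the jejunum, and in the ileum Slc2a2 ranged from 0.27 to 2.88 and Pck1 from 0.0503 to 1.66. The cause was not tested.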
